A study of Mus musculus with 8 samples.

Results

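The genes of cholesterol and fatty acid synthesis were followed in whole kidneys of 8-day-old mice, with 30 members chosen by name out of 47729 gene rows. They comprise 18 enzymes of the sterol pathway, 5 genes that control them, the sterol carrier gene Stard4 and 6 enzymes of fatty acid synthesis. All 30 members were found and passed the filter on low counts. The 4 knockout kidneys carried Six2Cre and Kctd1 fl/fl, a floxed allele that the Cre recombinase deletes in nephron progenitors and so in the nephron epithelium descended from them. The other 4 kidneys came from control littermates labelled wildtype, and the labels do not say which of these alleles the littermates carried. No strain or sex is given. The labels do not tie each library to a separate animal, so every p-value here reflects library-to-library spread, which may be technical at least in part. Libraries of the same genotype differed widely in Xist counts, with 81994 in knockout 2 and 101295 in wildtype 3, against 4 to 151 in the others. Libraries held 14457760 to 20741076 counts. Kctd1 itself stood at 24.3 ± 1.57 CPM in the knockouts against 31.6 ± 1.77 CPM in the wildtypes (SD, n = 4 libraries per genotype), with no overlap between the groups. Its log2 fold change of -0.38 ± 0.09 (SE) did not pass the threshold used below (Benjamini-Hochberg adjusted p = 0.279 from edgeR). CPM is the count relative to the scaled library total and is used here between libraries. In whole kidney RNA, fewer cells of a type and less RNA per cell cannot be told apart.

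Cholesterol is built from acetyl-CoA through mevalonate, isoprenoid units and squalene, which is closed into the sterol ring and then trimmed to cholesterol. The transcription factors SREBP1 and SREBP2, products of Srebf1 and Srebf2, switch these genes on when membranes run short of sterol. Scap escorts them out of the endoplasmic reticulum, and the Insig proteins hold them back when sterol is plentiful. SREBP2 mainly serves the sterol enzymes and SREBP1 the fatty acid enzymes, and both work at promoters together with the CCAAT-binding factor NF-Y and with Sp1.

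Promoters are shown for a pair of members that hold a sterol element-like run of letters, to let the sequence be read beside their levels. RefSeq promoters (GRCm38.p6) were matched for 24 of the 30 members, leaving Fdft1, Fdps, Scd1, Scd2, Sqle and Stard4 unmatched, and 250 bases before each start were searched on both strands. CCAAT stood before a start of 19 of the 24 members (79.2%), against 37.5% of all 27025 genes in the table, and GGGCGG, the letters Sp1 is known to bind, before a start of 20 (83.3%) against 35.4%. TCACNCCA stood before 3 members, Hmgcs1, Msmo1 and Srebf2 (12.5% against 4.20% of all genes), and the 1 letter longer TCACNCCAC, which contains it, before Hmgcs1 alone among them (4.17% against 1.23%). The 5 members without CCAAT were Acaca, Acat2, Acly, Elovl6 and Scap, so 3 of the 4 matched fatty acid enzymes lacked it and Fasn held it. Both promoters read 5′ to 3′ on the plus strand, that of the gene, and end before the first base GENCODE gives to it. The searched windows could reach past that base, and the window of Srebf2 was cut to 162 bases for this reason. Msmo1 is not printed because most of its window lay past that base. Capitals mark the matches to TCACNCCA and to the CCAAT letters, each of the latter lying on the opposite strand and so printed as its complement, ATTGG. These matches do not overlap.
Hmgcs1, chr13:119690101-119690350: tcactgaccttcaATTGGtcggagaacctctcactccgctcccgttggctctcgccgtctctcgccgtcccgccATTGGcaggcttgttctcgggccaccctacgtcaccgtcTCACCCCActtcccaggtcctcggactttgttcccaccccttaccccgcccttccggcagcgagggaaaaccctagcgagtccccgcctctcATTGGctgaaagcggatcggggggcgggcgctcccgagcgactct
Srebf2, chr15:82147019-82147180: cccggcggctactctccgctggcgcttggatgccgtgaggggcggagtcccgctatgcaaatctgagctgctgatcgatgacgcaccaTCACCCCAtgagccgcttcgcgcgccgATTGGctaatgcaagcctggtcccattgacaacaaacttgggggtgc

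A match is a run of letters in a window and was not tested as a binding site. The genes compared were not matched to the members for expression, base content or number of promoters.

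The members spanned a wide range of levels per transcript length. Levels between genes are given here as TPM, which also divides by transcript length, as mean ± SD over all 8 libraries. The highest was Insig2 at 74.0 ± 19.9 TPM, followed by Hmgcs1, which makes the HMG-CoA that feeds mevalonate synthesis, at 55.4 ± 6.39 TPM, and Ebp, a sterol isomerase, at 48.6 ± 8.75 TPM. The lowest were Scd1 at 2.99 ± 0.56 TPM, Hsd17b7 at 2.39 ± 0.43 TPM and Acaca, the acetyl-CoA carboxylase that commits carbon to fatty acids, at 2.03 ± 0.38 TPM. The highest mean was thus 36.4 times the lowest. By counts Insig2 stood lower, at 35.6 and 44.2 CPM (knockout and wildtype means), against 336 and 349 CPM for Hmgcs1. Its rank and that ratio thus depend on the length divided out, and which isoforms gave it was not examined. Of the 29 neighbouring pairs in this order, 7 kept it in all 8 libraries, among them Hmgcs1 above Ebp, Ebp above Acly and Sc5d above Scd1. In the crowded middle, Msmo1, Srebf1 and Fdps (26.0, 25.4 and 24.9 TPM) changed places from library to library. Members were compared between libraries by CPM, because the member levels of knockout 2 summed to 418 TPM against 516 to 626 TPM in the others. In that library Rn18s-rs5, a ribosomal RNA gene, took 5.39% of the counts, against 0.361% to 1.141% elsewhere. Per length it stood at 13616 TPM there, against 1276 to 3686 TPM elsewhere. The cause of the lower member sum was not tested.

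**Figure D1:**
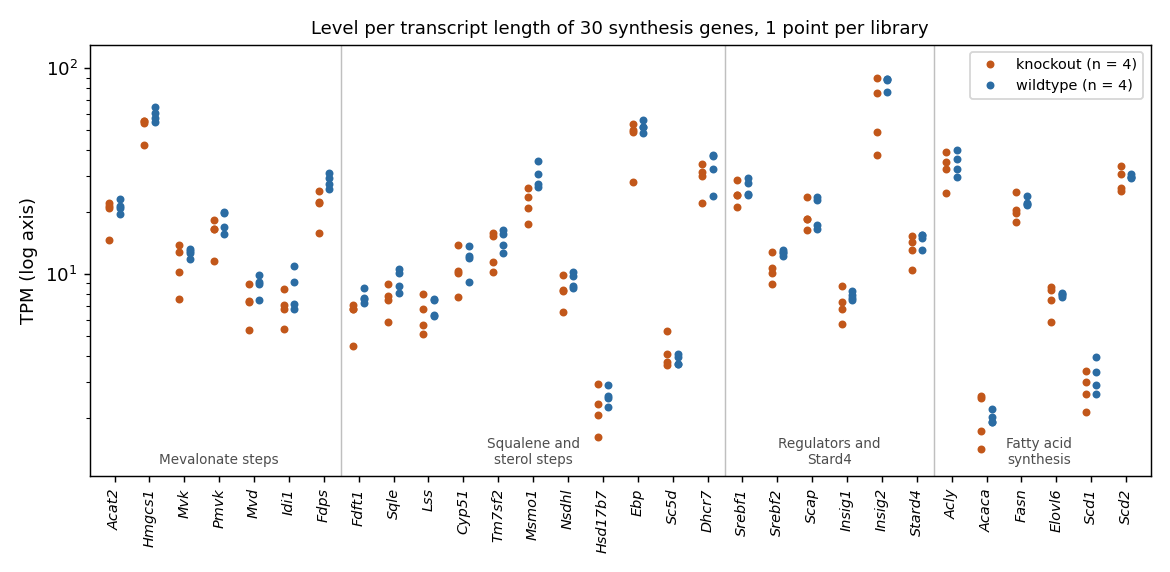
Level of each of the 30 genes in TPM (log axis), grouped by role, with 1 point per library (orange knockout, blue wildtype, n = 4 each). Insig2, Hmgcs1 and Ebp lie highest and Acaca and Hsd17b7 lowest.

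No member passed the threshold between the genotypes. Of the 30, 0 passed with edgeR and 0 with DESeq2 at an adjusted p of 0.05, while 0.0809% of the 18548 genes tested passed with edgeR and 0.653% with DESeq2. At an unadjusted edgeR p under 0.05, 2 of the 30 passed, beside 6.18% of all genes. Both were lower in knockout (3.08% of all genes) and 0 were higher (3.11% of all genes). DESeq2 gave 2 as well. Groups overlapped for all 30 members, where 4.03% of all genes separated the groups. The precision of these values limits how large a change could have been missed. The 95% interval of the log2 fold change, not adjusted for the number of genes, lay within a 1.5-fold change in either direction for 29 of the 30, Insig2 being the exception. Without 1 library the count at an unadjusted p under 0.05 was 4 (knockout 3 or wildtype 4 left out), 3 (knockout 1) or 1 (any of the other 5). It was 0 without the 2 libraries with abundant Xist counts, knockout 2 and wildtype 3. Knockout 2 was also the library with the most Rn18s-rs5 and the lowest TPM sum, so that fit does not separate these traits. The count past the adjusted threshold was 0 in each of these fits. The genes in the unadjusted count changed as well, since the 1 member without knockout 4 was Sc5d, higher in knockout (log2 fold change 0.38).

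**Figure D2:**
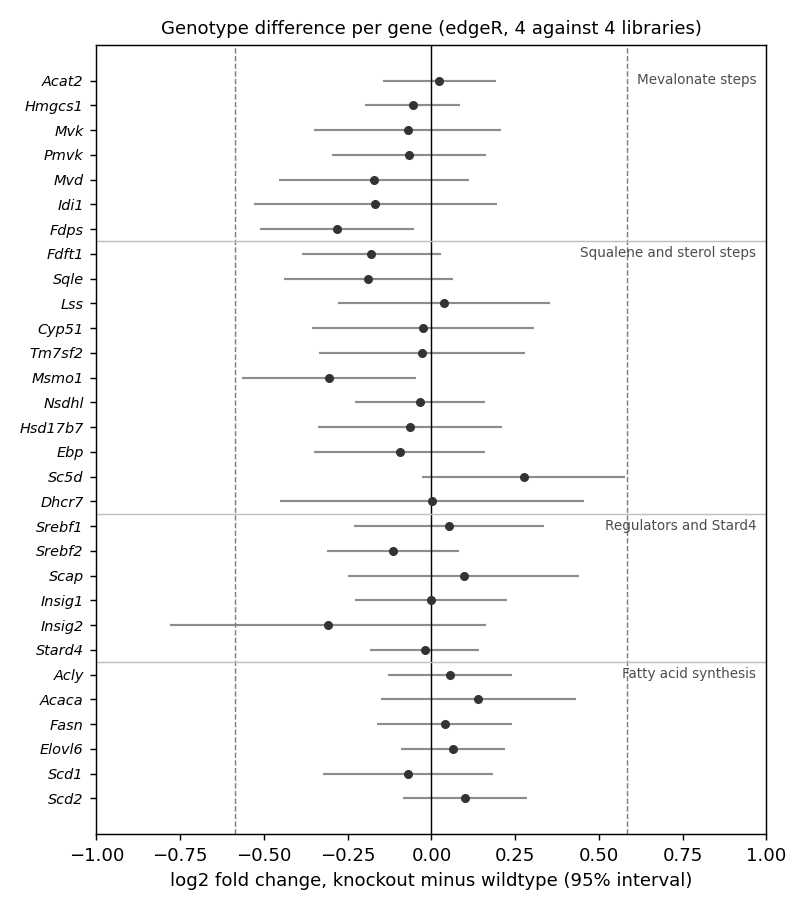
Log2 fold change of each gene (knockout minus wildtype) with its 95% interval from edgeR's quasi-likelihood fit, 4 against 4 libraries. Dashed lines mark a 1.5-fold difference, which the interval of Insig2 crosses and the other 29 do not, and the intervals of Fdps and Msmo1 lie below 0.

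The 7 mevalonate enzymes had a median log2 fold change of -0.07, with 6 negative and 1 positive, beside a median of 0.0012 over all genes tested. Fdps, farnesyl diphosphate synthase, joins isoprenoid units and lies on chromosome 3 from 89093588 to 89101959 (GRCm38). It measured 39.2, 32.4, 35.1 and 32.7 CPM in knockouts 1 to 4, against 43.2, 48.4, 41.1 and 36.7 CPM in wildtypes 1 to 4. The 3 highest libraries were wildtype, and knockout 1 lay above wildtype 4. The log2 fold change was -0.28 ± 0.10 (SE; edgeR, Benjamini-Hochberg adjusted p = 0.697), from means of 34.8 ± 3.18 CPM in knockout and 42.4 ± 4.88 CPM in wildtype. Reads that processed pseudogenes of Fdps could share were not examined. Mvd, which decarboxylates mevalonate diphosphate, measured 27.8, 22.0, 23.4 and 21.6 CPM in the knockouts, against 27.4, 28.0, 29.97 and 21.2 CPM in the wildtypes. Its lowest library was wildtype 4, and its log2 fold change was -0.17 ± 0.13 (edgeR, Benjamini-Hochberg adjusted p = 0.917). It was -0.27 without wildtype 4, -0.26 without knockout 1 and -0.11 without wildtype 3. Hmgcs1 (chromosome 13, 119690379 to 119708260), the highest of the group per length, had 339, 343, 336 and 325 CPM in the knockouts, against 379, 355, 326 and 338 CPM in the wildtypes. Its spread between libraries was the smallest of the 30 members, and the interval of its log2 fold change ran from -0.20 to 0.09. Idi1, the isomerase of isopentenyl diphosphate, was uneven among the wildtype libraries, with 59.8 and 52.6 CPM in wildtype 1 and 2 and 37.4 CPM in both wildtype 3 and 4, while knockout ran from 36.5 to 48.4 CPM. Acat2, the thiolase at the entry of the pathway, and the kinase genes Mvk and Pmvk had log2 fold changes of 0.02, -0.07 and -0.07.

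The 11 enzymes from squalene to cholesterol had a median log2 fold change of -0.03 (8 below 0 and 3 above). Msmo1, the methylsterol monooxygenase, lies on chromosome 8 from 64718139 to 64733792. It measured 45.6, 40.04, 41.9 and 34.7 CPM in knockouts 1 to 4, against 58.7, 47.9, 51.9 and 42.1 CPM in wildtypes 1 to 4. Knockout 4 was the lowest library and wildtype 1 the highest, and knockout 1 exceeded wildtype 4. At a log2 fold change of -0.31 ± 0.12 it did not pass (edgeR, Benjamini-Hochberg adjusted p = 0.706). Sc5d, the desaturase near the end of the pathway, was higher in 3 of the 4 knockout libraries than in every wildtype library. It had 21.4, 20.1, 16.8 and 13.99 CPM in the knockouts, against 15.8, 14.9, 14.3 and 14.6 CPM in the wildtypes. The wildtype values lay close together, and knockout 4 lay below all of them. The log2 fold change was 0.28 ± 0.14 and also missed the threshold (edgeR, Benjamini-Hochberg adjusted p = 0.837), and it ran from 0.18 without knockout 1 to 0.38 without knockout 4. Ebp, the highest of these enzymes per length, had 53.8, 40.5, 59.95 and 52.0 CPM in the knockouts, against 58.9, 57.4, 51.7 and 52.0 CPM in the wildtypes, with knockout 2 lowest and knockout 3 highest. Fdft1, which makes squalene, and Sqle, which oxidises it as a rate-limiting step, had log2 fold changes of -0.18 ± 0.09 and -0.19 ± 0.11. Their highest libraries were wildtype 1 and 2, at 44.2 and 41.6 CPM for Fdft1 and 53.6 and 53.5 CPM for Sqle. Dhcr7, the final reductase, varied most between libraries among the enzymes, from 17.6 CPM in knockout 4 to 33.2 CPM in knockout 2, and its group means were equal at 26.5 CPM. Lss, Cyp51, Tm7sf2, Nsdhl and Hsd17b7, which close the ring and process the early sterols, had log2 fold changes between -0.06 and 0.04, with intervals from -0.36 to 0.35.

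Counted together, 14 of the 18 sterol pathway enzymes had negative log2 fold changes (4 positive, 22.2%), where 50.3% of all genes tested were positive. Their median was -0.07, and it ran from -0.14 to -0.03 when each library was left out in turn. All 18 were measured in the same libraries, so the 14 are not separate observations, and no test was made over them. On log2 TPM, where the median of all genes shifted to -0.11 (pseudocount 1), the sterol median was -0.20. By library, their mean deviation from each gene's own mean (log2 CPM) was 0.08, -0.08, 0.01 and -0.18 in knockout 1 to 4 and 0.14, 0.11, -0.04 and -0.05 in wildtype 1 to 4. The libraries above their gene means were thus knockout 1 and 3 and wildtype 1 and 2, and the spread within each genotype was wider than the difference between them, with a within-genotype SD of 0.11. In wildtype 1, 14 of the 18 enzymes lay above their mean, and 13 in both wildtype 2 and knockout 1. In knockout 4 only 2 of the 18 did, Tm7sf2 and Mvk.

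**Figure D3:**
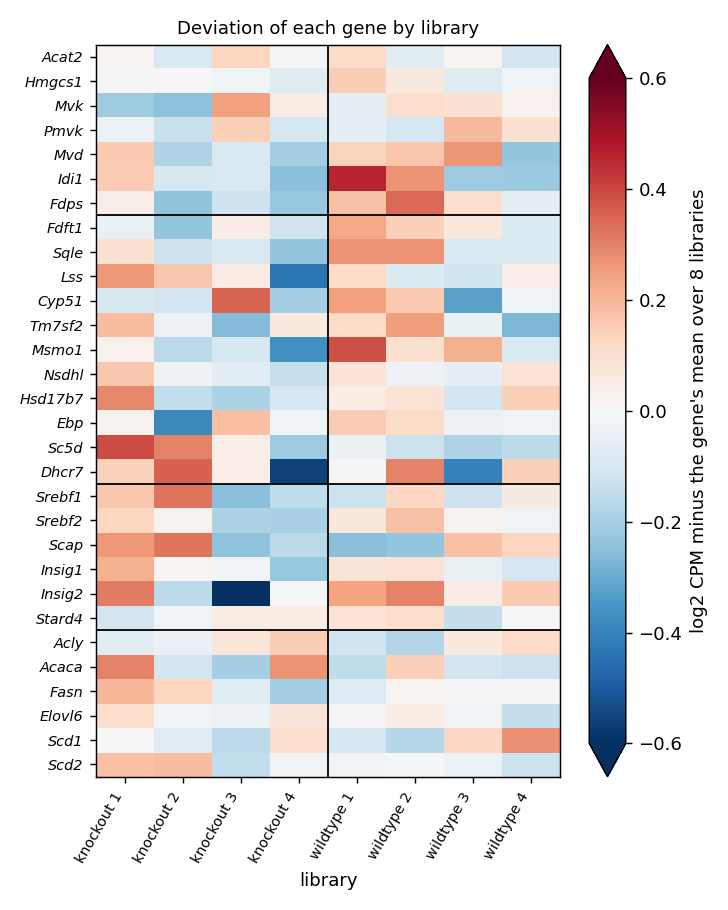
Log2 CPM of each gene minus its mean over the 8 libraries, with genes in rows by role and libraries in columns. Wildtype 1 and 2 and knockout 1 are red and knockout 4 is blue over most sterol enzymes, and Insig2 in knockout 3 and Dhcr7 in knockout 4 are the deepest blue cells.

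The regulators showed no shift of one kind, with a median log2 fold change of -0.01 over the 6, Stard4 included (2 above 0 and 4 below). Insig2, on chromosome 1 from 121304353 to 121332589, measured 48.0, 34.8, 20.8 and 38.7 CPM in the knockouts, against 45.7, 47.6, 40.04 and 43.3 CPM in the wildtypes. A single library, knockout 3, lay far below the rest, and knockout 1 was the highest of all 8. The log2 fold change was -0.31 ± 0.21 with an interval from -0.78 to 0.16 (edgeR, Benjamini-Hochberg adjusted p = 0.908), and it was -0.13 without knockout 3 and -0.49 without knockout 1. Srebf2 (chromosome 15, 82147181 to 82205379) measured 125, 116, 100 and 99.8 CPM in the knockouts, against 120, 129, 116 and 112 CPM in the wildtypes, at a log2 fold change of -0.12 ± 0.09. Its lowest libraries were knockout 3 and 4, and the log2 fold change was -0.072 and -0.070 without each of them, -0.076 without wildtype 2 and -0.18 without knockout 1. Srebf1 ran from 62.6 to 93.3 CPM in knockout and from 68.2 to 81.4 CPM in wildtype, and Scap from 63.1 to 93.5 and from 62.8 to 84.4 CPM. For both genes knockout 1 and 2 were the highest knockout libraries, at 83.6 and 93.3 CPM for Srebf1 and 89.7 and 93.5 CPM for Scap. Insig1, itself a target of SREBP and so often read as a gauge of its activity, had equal means of 35.7 ± 4.44 and 35.7 ± 2.36 CPM. Stard4, which carries cholesterol between membranes, measured 131 ± 6.51 and 133 ± 9.95 CPM. Per length, the level of Insig1 was 0.0868 to 0.192 times that of Insig2 and the level of Srebf2 0.372 to 0.525 times that of Srebf1, although Srebf2 had more counts. Salmon assigns reads to isoforms before the length is divided out, and which isoforms gave these values was not examined.

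The 6 enzymes of fatty acid synthesis had a median log2 fold change of 0.06 (5 above 0 and 1 below), which flipped to -0.077 on log2 TPM with a pseudocount of 1, where the median of all genes was -0.11. Scd2, a stearoyl-CoA desaturase that makes monounsaturated fatty acids, lies on chromosome 19 from 44293674 to 44306864. It measured 358, 360, 285 and 312 CPM in knockouts 1 to 4, against 313, 315, 309 and 290 CPM in wildtypes 1 to 4. Knockout 1 and 2 stood above every wildtype library and knockout 3 below them all, and the log2 fold change was 0.10 ± 0.08 (edgeR, Benjamini-Hochberg adjusted p = 0.924). It was 0.053 without knockout 2, 0.056 without knockout 1 and 0.16 without knockout 3. Scd1, its paralog on the same chromosome, measured 27.6 ± 2.12 and 29.0 ± 4.20 CPM. Per length, Scd2 stood 7.49 to 11.8 times above Scd1 in each library, averaging 10.5 ± 1.22 among knockouts and 9.51 ± 1.65 among wildtypes (SD). These paralogs are alike in sequence, and reads shared between them were not examined. Acaca measured 38.4, 28.8, 27.2 and 37.7 CPM in the knockouts, against 28.1, 34.5, 28.8 and 28.6 CPM in the wildtypes, with knockout 1 and 4 and wildtype 2 apart from the other 5 libraries. Its log2 fold change was 0.14 ± 0.13 (edgeR, Benjamini-Hochberg adjusted p = 0.939). Single libraries moved it, to 0.059 without knockout 1, 0.069 without knockout 4, 0.21 without wildtype 2 and 0.22 without knockout 3. Acly, which releases acetyl-CoA from citrate and was the highest of the group per length, had 176, 179, 193 and 204 CPM in the knockouts, against 170, 163, 192 and 200 CPM in the wildtypes. In both genotypes libraries 3 and 4 were the higher ones. Fasn, the fatty acid synthase, measured 98.1 ± 12.3 and 95.4 ± 2.73 CPM, and Elovl6, which lengthens its product, 90.5 ± 4.403 and 86.6 ± 4.79 CPM. The intervals of the 6 log2 fold changes together ran from -0.32 to 0.43.

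Fat around the kidney also makes fatty acids, and adipocyte transcripts differed between the libraries. Of 10 adipocyte markers 9 passed the filter. The summed level of the list per length was 162 to 374 TPM in knockout and 184 to 310 TPM in wildtype, with Lep at most 0.296 TPM. Fabp4 alone gave 107 to 240 TPM of these sums. The low ends of the TPM sums given here for knockout are knockout 2, whose member sum was also the lowest. The next lowest adipocyte sum among the knockouts was 186 TPM in knockout 1. Ucp1, the uncoupling protein of brown fat, measured 15.1, 50.7, 127 and 100.3 CPM in the knockouts, against 33.8, 30.9, 114 and 92.6 CPM in the wildtypes. For Ucp1, the libraries numbered 3 and 4 of both genotypes were thus the high ones, as they were for Cidea, Cidec, Fabp4 and Car3. Adipoq, Plin1 and Cfd did not keep this order. Retn was lower in libraries 3 and 4 within each genotype. It measured 1.38, 0.945, 0.414 and 0.896 CPM in the knockouts, against 1.64, 1.40, 0.786 and 1.06 CPM in the wildtypes. Among the fatty acid enzymes Acly was also higher in libraries 3 and 4 of both genotypes. Fasn was lower in knockout 3 and 4 (92.3 and 83.8 CPM) than in knockout 1 and 2 (111 and 106 CPM). The mean deviation of the 6 fatty acid enzymes was lowest in knockout 3, at -0.09. The mean deviation of the 9 markers was -0.58, -0.14, 0.53 and 0.37 in knockout and -0.08, -0.56, 0.30 and 0.17 in wildtype, so the 3 libraries with the highest sterol enzyme means, wildtype 1, wildtype 2 and knockout 1, were among the 4 with negative values here. The part of these cells in the member levels was not tested. Without knockout 3 and wildtype 3, the libraries with the most Ucp1 in each group, 0 members passed the adjusted threshold. The medians there were -0.11 for the sterol enzymes and 0.08 for the fatty acid enzymes. In that fit Cyp51 and Fdps had an unadjusted edgeR p under 0.05, with Cyp51 at a log2 fold change of -0.26 against -0.03 with all libraries. The adrenal gland makes steroids from cholesterol, and 9 of its marker genes summed to 7.63 to 14.4 TPM, of which Akr1b7 gave 6.402 to 13.1 TPM. Of the others, Star, which carries cholesterol into mitochondria, reached 1.04 TPM, Cyp11a1, which cleaves its side chain, 0.456 TPM in knockout 3, and Hsd3b1 0.137 TPM. Cyp11b1, Cyp11b2 and Cyp21a1 were each at most 0.0352 TPM in every library. Of 6 distal convoluted tubule markers 2 were lower in knockout past the threshold (edgeR), the list summing to 104 to 142 TPM in knockout (128 TPM at the lowest outside knockout 2) and 210 to 241 TPM in wildtype, and the part of this segment in the member levels was not tested. The 7 proximal tubule markers, which define the bulk of kidney cortex, were all present and summed to 3229 to 6088 TPM. Most of each sum was Kap, at 2385 to 4712 TPM. Groups were apart, as for 4.03% of all genes tested, for Slc5a2, lower in knockout (log2 fold change -0.36 ± 0.10), and for Slc22a6, higher in knockout (0.15 ± 0.06). Neither passed the threshold (edgeR). The 5 collecting duct markers summed to 343 TPM in knockout 1, against 126 to 212 TPM in the other libraries. Aqp2 gave 199 TPM of that sum, against 46.9 to 88.2 TPM elsewhere. By CPM, Slc4a1 and Atp6v1g3 were not highest in knockout 1. The part of the collecting duct in the member levels was not tested.

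**Figure D4:**
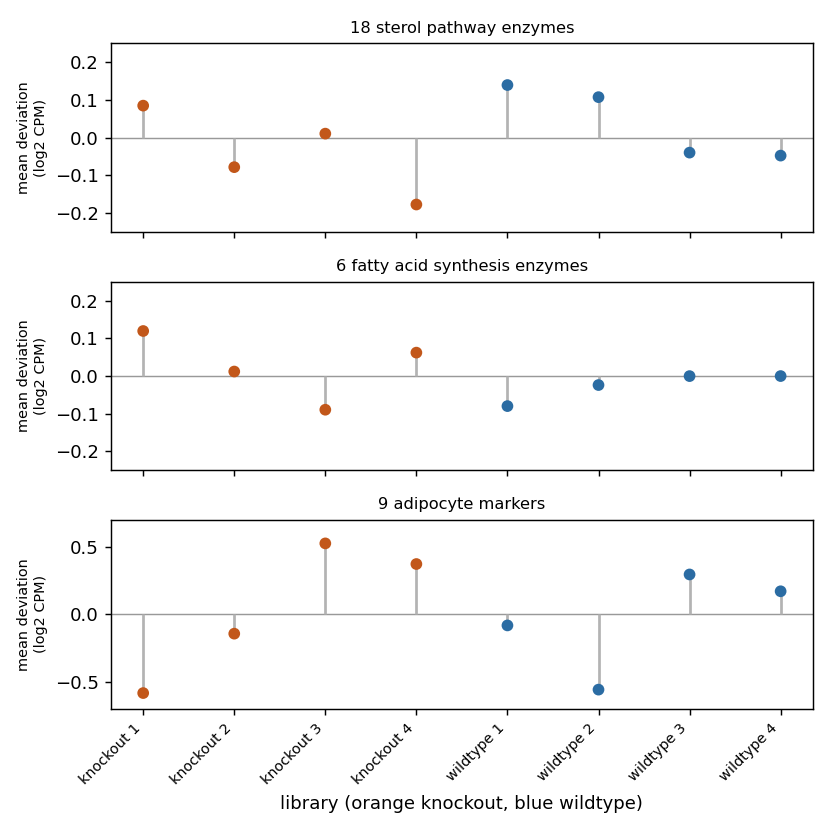
Mean deviation from the gene means (log2 CPM) in each library for 18 sterol pathway enzymes, 6 fatty acid synthesis enzymes and 9 adipocyte markers (1 point per library, vertical scale wider in the bottom panel). The sterol enzymes are highest in wildtype 1 and 2 and knockout 1, and the adipocyte markers are highest in knockout 3 and 4 and wildtype 3.

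The median within-group SD of log2 CPM was 0.17 over the members, against 0.14 over the 9990 tested genes with a mean of at least 16.5 CPM, the level of the lowest member, and 0.21 over all genes tested. It ran from 0.07 for Hmgcs1 to 0.37 for Insig2.

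Among 45 other genes of the pathway, 0 passed with edgeR or DESeq2, and at an unadjusted edgeR p under 0.05 3 were higher and 0 lower in knockout, beside 3.11% and 3.08% of all genes tested. Groups were apart for 2 of the 45, beside 4.03% of all genes, so neither count stands far from the share over all genes. Of the 45, 29 were positive (64.4%, against 50.3% of all genes), with a median log2 fold change of 0.08. The 3 were Acacb, the mitochondrial acetyl-CoA carboxylase whose product restrains fatty acid oxidation, Dgat2, which completes triglycerides, and Soat1, which stores cholesterol as esters. Acacb measured 47.6, 41.2, 34.4 and 44.4 CPM in the knockouts, against 31.5, 19.6, 32.1 and 31.4 CPM in the wildtypes. Every knockout library lay above every wildtype library, at a log2 fold change of 0.55 ± 0.16 that did not pass (edgeR, Benjamini-Hochberg adjusted p = 0.516). Dgat2 measured 89.5 ± 8.67 CPM in the knockouts, against 71.1 ± 8.20 CPM in the wildtypes, and its log2 fold change was 0.33 ± 0.10 (edgeR, Benjamini-Hochberg adjusted p = 0.553). Soat1 measured 59.1 ± 10.7 and 44.3 ± 5.70 CPM, and its log2 fold change was 0.42 ± 0.14 (edgeR, Benjamini-Hochberg adjusted p = 0.590). Both had overlapping groups. By subgroup, 15 of 20 other fatty acid and glycerolipid genes were positive, as were 8 of 14 genes of sterol transport and its nuclear receptors, 4 of 7 further sterol and isoprenoid genes, and 2 of 4 genes of SREBP processing. Osbp, a sterol transfer protein gene chosen after its values were seen, was the other gene with groups apart, at 107 ± 4.79 CPM in the knockouts, against 116 ± 1.86 CPM in the wildtypes.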

How the data were processed

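RNA-seq was made from total RNA of 8 whole kidneys with a strand-specific kit, per the labels' protocols. The submitters' processing notes name Salmon, DESeq2 1.14.1 and the mm10 build. The sources used here do not give the annotation release. The authors deposited estimated counts per gene, as whole numbers without gene names, and TPM per gene with identifiers. The 47729 count rows were matched by order to the identifiers of the TPM table. For 13251 genes with 50 or more counts per library, the log2 ratio of count to TPM varied between libraries with a median SD of 7.4e-04, against 0.281 after shifting the rows by 1. Counts were filtered with filterByExpr (18548 genes kept), scaled with TMM and tested with edgeR 4.0.16 in R 4.3.3 (quasi-likelihood test, robust, two-sided, genotype as the only term), with Benjamini-Hochberg adjustment over all genes and a threshold of 0.05. Standard errors came from the log2 fold change and the root of the F statistic, and intervals use the fit's degrees of freedom. The test was checked on simulated counts. Log2 CPM used a prior count of 2. List medians have no test. Positions are from GENCODE M21 (GRCm38).

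The members, lists and tests were chosen with earlier results of these data known. Values per library were given for members with an unadjusted p under 0.05, the 2 members of each role with the smallest p and the member of each role with the highest TPM, and of the other pathway genes those with the 4 smallest p were to be named, 1 of which is not reported here; Idi1, Fdft1, Sqle, Dhcr7, Srebf1 and Scap were given library values after they were seen. Alternatives were other scalings, filters, DESeq2 1.42.0, limma-voom (limma 3.58.1), a replicate block, limma with pseudocounts of 1 and 0.1 on log2 TPM, each library left out, and, chosen after seeing the data, 2 pairs of libraries left out.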

Additional observations from a re-analysis of the deposited data

Results flagged for a closer look

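In 3 of 60 sets of 4 libraries (30 genes in each genotype), 1 library stood far from the other 3 (Dixon's test at the 95% level), where chance gives about 3 (1 in 20). Cyp51, the sterol demethylase gene, measured 87.1 CPM in knockout 3 and 59.6 to 64.0 CPM in the other knockouts. Hsd17b7, a sterol ketoreductase gene, measured 25.9 CPM in knockout 1 and 18.6 to 19.7 CPM in the other knockouts. Acaca measured 34.5 CPM in wildtype 2 and 28.1 to 28.8 CPM in the other wildtypes.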

How the results depend on the processing

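The count of members past the adjusted threshold was 0 in all 20 alternatives, as was that of the 45 other pathway genes, and the directions of Fdps, Msmo1, Sc5d, Insig2, Srebf2, Hmgcs1, Mvd, Idi1, Fdft1, Sqle and Hsd17b7 held in all 20. The count at an unadjusted p under 0.05 was 1 to 4 with a library left out and 0 without the pair with Xist counts. Over all genes, the count past the threshold was 15, and it was 153 with DESeq2, 52 without wildtype 4, 29 without knockout 3, 27 with no filter, 10 with the block and 10 without wildtype 3, 3 without the pair with Xist counts and 6 in both TPM fits. The TPM fits moved the median log2 fold change of all genes to -0.11 (log2(TPM + 1)) and -0.14 (log2(TPM + 0.1)). There the sterol median was -0.20 and -0.21 and the fatty acid median -0.077 and -0.083, and these members turned negative: Acat2 -0.11 and -0.12, Lss -0.11 and -0.13, Dhcr7 -0.15 and -0.16, Srebf1 -0.10 and -0.11, Scap -0.054 and -0.056, Acly -0.084 and -0.087, Acaca -0.0036 and -0.017, Fasn -0.11 and -0.11, Elovl6 -0.070 and -0.080, Scd2 -0.049 and -0.050. Values near 0 also changed sign in count fits. Insig1 was 1.25e-04 with RLE, 0.012 with upper-quartile scaling and 3.71e-04 with the stricter filter. Dhcr7 was -0.018 with total counts, -3.89e-05 with no filter, -8.23e-04 with DESeq2 and -0.015 with limma-voom. Without the pair with Xist counts, Mvk was 0.013, Pmvk 0.023, Lss -0.047, Dhcr7 -0.25 and Srebf1 -0.092; without the pair with the most Ucp1, Acat2 was -0.0073, Lss -0.0051, Tm7sf2 0.026 and Dhcr7 -0.12. With each library left out, Lss ran from -0.049 to 0.17, Cyp51 from -0.16 to 0.053, Dhcr7 from -0.13 to 0.16, Stard4 from -0.070 to 0.010, Fasn from -0.025 to 0.11, Ebp from -0.17 to 0.0048, Srebf1 from -0.057 to 0.14, Scap from -0.0025 to 0.18, Acat2 from -0.017 to 0.064, Tm7sf2 from -0.12 to 0.054, Insig1 from -0.079 to 0.069, Nsdhl from -0.099 to 0.0066 and Scd1 from -0.14 to 0.017. Others kept their sign but moved by over 1.5 times: Hmgcs1 from -0.089 to -0.016, Idi1 from -0.26 to -0.028, Mvk from -0.17 to -0.0058, Pmvk from -0.13 to -0.0097, Hsd17b7 from -0.19 to -0.015, Acly from 0.0077 to 0.10 and Elovl6 from 0.027 to 0.090. The cause of these changes was not tested. With 4 libraries a group, small shifts of single genes were not detectable.

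The replicate numbers were not taken to pair the libraries: same-numbered libraries correlated at 0.018, -0.081, 0.036 and 0.014 in their deviations. With the replicate number as a block the sterol median was -0.070 and the fatty acid median 0.061, 2 members had an unadjusted p under 0.05, and Dhcr7 was -0.013.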
